A study of Mus musculus with 2 samples.

Results

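The collagen and laminin chains of the mouse genome were followed across 3 clones of embryonic stem (ES) cells. All gene probes whose name in the array files was that of a collagen alpha chain or of a laminin alpha, beta or gamma chain were taken, whatever their values. They numbered 72 of 39429 probes and covered 51 of 31896 gene names. Laminin chains had 13 probes for 11 genes, fibrillar collagens 11 probes for 11 genes, network collagens 14 probes for 9 genes and the remaining collagens 34 probes for 20 genes.

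Each clone derived from ZHBTc4, an ES cell line in which both genomic copies of Oct4 are inactivated and Oct4 is supplied by a transgene that doxycycline represses, and all cells received doxycycline before harvest. EGFP clone 2-5 carried a pCAG-IP vector for EGFP alone. Oct4-EGFP clone 9 carried the vector for Oct4-EGFP, and Nr5a2-EGFP clone 26 that for Nr5a2-EGFP, a nuclear receptor fused to EGFP. The cells were kept without feeders on gelatin, itself denatured collagen, in 15% serum and 1000 IU/ml LIF. On the EGFP array, the EGFP clone was labelled with Cy3 and the Nr5a2-EGFP clone with Cy5. On the Oct4 array, the Oct4-EGFP clone was labelled with Cy3 and the Nr5a2-EGFP clone again with Cy5. Each pair of clones was hybridised once, with no dye swap, and each transgene was represented by 1 clone. No test between clones was therefore possible, and transgene and clone cannot be told apart. In the ratios within an array dye cannot be told apart from them either, whereas EGFP and Oct4-EGFP were both labelled with Cy3.

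Collagens are trimers of alpha chains wound into a triple helix, which requires glycine at every turn of a repeated Gly-X-Y motif. Fibrillar collagens assemble into the fibrils of connective tissue, whereas type IV collagen and the short-chain collagens VIII and X form open networks. Laminins are cross-shaped trimers of 1 alpha, 1 beta and 1 gamma chain that polymerise on the cell surface through receptors such as integrins and dystroglycan. Laminin containing the alpha 1, beta 1 and gamma 1 chains and type IV collagen made of the alpha 1 and alpha 2 chains are the first components of the embryonic basement membrane, laid down around the inner cell mass, by the primitive endoderm and by the trophectoderm. Loss of Oct4 in ES cells is known to divert them towards trophoblast.

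A probe of 60 bases stood for each transcript. The first 30 bases are shown for the probes on which the main differences rest, with the position of the whole probe on mm9. None of these letters carries a mark, since the array reports the hybridisation of the whole probe.
Lama1, chr17:68171924-68171983, plus strand: atgttgaactaaagccacacggacaacaga
Lama4, chr10:38825794-38825853, plus strand: ttggatgtagactcagaagtgaaccatgta
Lamb1, chr12:32014411-32014470, plus strand: ccgaggcagtcatctacaaataacccatca
Lamb2, chr9:108392189-108392248, plus strand: gccctgaaactgaaacgggcaggaaatagc
Lamc1, chr1:155066156-155066215, minus strand: actgtggcccttttcaatgtgccttcactt
Col4a1, chr8:11199009-11199068, minus strand: ttttcgtctctggagaaactgtactatcct
Col4a2, chr8:11448840-11448899, plus strand: cagtcttcctaaaatgaggcagagtctagg
Col5a1, chr2:27892892-27892951, plus strand: cctgaccttcaaaagatgttctgaggtggt
Col8a2, chr4:125991441-125991500, plus strand: acttaccacatatcacatatcaggttcagg

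For 3 collagens a probe held at least 5 complete repeats of a glycine codon followed by 2 others, the pattern that codes for the triple helix. These show how the protein's repeat appears in the nucleic acid that was measured, and the glycine codons are in capitals. The Col15a1 and Col25a1 probes held 6 glycine codons each and the Col16a1 probe 5. In the Col16a1 probe the pattern breaks on both sides, as the next codons at the glycine place are not glycine codons.
Col15a1, chr4:47283786-47283845: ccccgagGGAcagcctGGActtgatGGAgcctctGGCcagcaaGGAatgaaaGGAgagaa
Col16a1, chr4:129756457-129756516: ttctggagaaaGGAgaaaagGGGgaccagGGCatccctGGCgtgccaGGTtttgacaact
Col25a1, chr3:130270497-130270556: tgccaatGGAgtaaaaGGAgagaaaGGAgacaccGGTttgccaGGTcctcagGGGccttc

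Signals below are the scanner software's processed signals, in arbitrary units after background subtraction and dye normalisation, and are given in the order EGFP clone, Nr5a2-EGFP clone on the same array, Oct4-EGFP clone, and Nr5a2-EGFP clone with Oct4-EGFP as its partner. They depend on each probe's sequence and rank no gene against another. Ratios are log2 ratios of the Nr5a2-EGFP clone over its partner after normexp correction and loess, where an offset of 50 pulls the ratios of dim probes towards 0. Oct4-EGFP was set over EGFP only indirectly, as the difference of both ratios. A ratio of at least 1 in size, a 2-fold difference, is called at least 2-fold, over probes well above background in at least 1 of the channels compared. The Nr5a2-EGFP clone was read on both arrays, and its readings lay apart with an SD of 0.27 on the log2 scale over 29954 probes, of which 1.37% were at least 2-fold apart. Among 47 member probes the SD was 0.28, and 1 probe, of Col24a1, was at least 2-fold apart. The labels do not say whether both arrays received 1 RNA extract of this clone, so what this spread covers is not known, and it stands in for no spread between cultures.

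Markers of cell types were read on the same arrays. All 14 ES cell genes were well above background in every channel. Of these, 7 were at least 2-fold lower in the Nr5a2-EGFP than in the Oct4-EGFP clone. The other way went 1, Lin28a, with a log2 ratio of 1.02. Over all genes, at 1 probe per gene, 4.55% were higher and 7.14% lower in this comparison. Of 12 trophoblast genes all but Elf5 were well above background, and 7 had a ratio of Nr5a2-EGFP over Oct4-EGFP of at least 2-fold, with a median log2 ratio of 1.35. Their signals, of which 1 gene, Gcm1, gave 119138 for EGFP and 83736 for Oct4-EGFP, summed to 244079 for EGFP, 116127 for Oct4-EGFP and 147093 to 183314 for Nr5a2-EGFP. Of 14 endoderm genes 8 to 13 were well above background, with Afp in no channel. Their signals summed to 8955 for EGFP, 5045 for Oct4-EGFP and 8348 to 9829.9 for Nr5a2-EGFP. Of these sums Lrp2 gave 4429 for EGFP, 1968 for Oct4-EGFP and 4490 to 5595 for Nr5a2-EGFP. The ratios showed no such shift: for Oct4-EGFP over EGFP the median log2 ratio of 13 measured was 0.03, with 1 beyond 2-fold in each direction. For Nr5a2-EGFP over Oct4-EGFP the median was 0.13, with 2 beyond it in each direction. Of 16 fibroblast genes 11 were well above background in each channel, while Prrx1, Lum, Postn, Fap and Meox1 were not. Their signals, of which Tagln gave 53682 for EGFP, summed to 76425 for EGFP, 60831 for Oct4-EGFP and 46443 to 62385 for Nr5a2-EGFP. By ratios, 2 of the 11 were at least 2-fold higher and 0 lower for Oct4-EGFP over EGFP, with a median of 0.12, the opposite sign to the sums. Trophoblast genes had 0 higher and 7 lower of 11 there, with a median of -1.11. ES cell genes had 5 higher and 2 lower of 14 in that comparison, with a median of 0.58. The lower ones were Sall4 at -1.49 and Lin28a at -1.18. Over EGFP, the Nr5a2-EGFP clone had 1 higher and 2 lower of 14 ES cell genes and 1 and 1 of 11 trophoblast genes. It had 0 higher and 1 lower of 11 endoderm genes, and the same of 11 fibroblast genes. Over all genes, 3.31% were higher and 5.09% lower there, and 6.48% and 5.86% for Oct4-EGFP over EGFP. The 2 ES cell genes lower over EGFP were Esrrb and Fgf4, whose Nr5a2-EGFP readings differed by -1.45 and -2.93 between the arrays. Those of Zfp42 differed by 1.14. All of these genes are also among the 7 lower against Oct4-EGFP, and their ratios depend on the reading taken. Between Oct4-EGFP and the other clones, the ES cell and trophoblast lists differed together with chains described below. The part of any list in the differences of the chains was not tested. In RNA from whole cultures, fewer cells of a type and less RNA per cell cannot be told apart.

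Most chains were detected in all clones. Of the 72 probes, 43 were well above background in all 4 channels, 16 in 1 to 3 channels and 12 in none, and 1 Lama3 spot was an outlier on the Oct4 array. Of the 51 genes, 35 had a probe above background in all 4 channels, and Col12a1, Col19a1, Col6a6 and Col8a1 had none in any. No member probe was saturated. In the EGFP clone 75% of member probes were well above background, beside 79.1% of all probes. In the Nr5a2-EGFP clone the shares were 70.8% beside 78.7% on the EGFP array and 67.6% beside 77.9% on the Oct4 array, and in the Oct4-EGFP clone 74.6% beside 79.9%. Of the 11 fibrillar probes, all were above background for EGFP, 10 for Oct4-EGFP and 9 or 10 for Nr5a2-EGFP.

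The laminin chains showed differences in both directions, and each of the 3 clones was the highest for at least 1 chain. Lama1 encodes the alpha 1 chain of the early embryonic laminin. Its signals were 7134 in the EGFP clone, 6887 in the Nr5a2-EGFP clone on the same array, 26793 in the Oct4-EGFP clone and 7422 in its Nr5a2-EGFP partner. The Oct4-EGFP clone was thus alone at the high end, with a log2 ratio of Nr5a2-EGFP over Oct4-EGFP of -1.81, a 3.51-fold difference. Over EGFP the Nr5a2-EGFP clone differed by -0.11, and Oct4-EGFP over EGFP was 1.70.

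Lamb1, the beta 1 chain listed in the files as Lamb1-1, went the other way. Its signals were 2307 in the EGFP clone, 1379.7 and 1019 in the Nr5a2-EGFP clone and 267 in the Oct4-EGFP clone. The Oct4-EGFP clone was the lowest, by a log2 ratio of -2.34 against EGFP, a 5.06-fold difference, and Nr5a2-EGFP over Oct4-EGFP was 1.63. The Nr5a2-EGFP clone lay -0.71 from EGFP, under 2-fold.

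Lamc1, the gamma 1 chain shared by most laminins, was the only laminin probe at least 2-fold apart between the Nr5a2-EGFP and EGFP clones. Its signals were 11484 in the EGFP clone, 36493 and 27053 in the Nr5a2-EGFP clone and 23959.6 in the Oct4-EGFP clone. The EGFP clone was the lowest, and the log2 ratios were 1.72 over EGFP, a 3.30-fold difference, and 0.35 over Oct4-EGFP. Oct4-EGFP over EGFP was 1.37. The 3 chains of the early embryonic laminin therefore differed in separate ways, with alpha 1 highest in the Oct4-EGFP clone, beta 1 lowest there and gamma 1 lowest in the EGFP clone.

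Lamb2, the beta 2 chain of mature basement membranes, gave 27219.6 in the EGFP clone, 13711 and 12024 in the Nr5a2-EGFP clone and 9345 in the Oct4-EGFP clone. The EGFP clone was the highest, with log2 ratios of -0.93 for Nr5a2-EGFP and -1.35 for Oct4-EGFP against it. Lama4, the alpha 4 chain typical of vessels and mesenchyme, gave 429.8 in the EGFP clone, 731 and 666 in the Nr5a2-EGFP clone and 101 in the Oct4-EGFP clone. Nr5a2-EGFP over Oct4-EGFP was 2.04, a 4.12-fold difference and the highest ratio of any member probe on either array. Over EGFP the Nr5a2-EGFP clone stood at 0.64, and Oct4-EGFP over EGFP was -1.40.

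Lama5, the alpha 5 chain of epithelial laminins, had signals of 18057 in the EGFP clone, 17270.1 and 15028 in the Nr5a2-EGFP clone and 22411 in the Oct4-EGFP clone, and its ratios of -0.03 and -0.45 were under 2-fold. Lama3, an alpha chain of epithelial laminin, was measured with its bright probe on the EGFP array only, at 7278 in the EGFP and 13109 in the Nr5a2-EGFP clone, a log2 ratio of 0.79. The dim Lama3 probe was at least 1.36-fold higher than EGFP and stood at 0.48 over Oct4-EGFP. Lamb3, a beta chain of epithelial laminin, was well above background in the EGFP and Oct4-EGFP clones but in neither Nr5a2-EGFP reading, with signals from 29.7 to 101. Lama2, of muscle laminin, gave 0.43 and 0.03 with the measured probe. Lamc3 was well above background in the Oct4-EGFP clone alone, at a signal of 42.6.

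**Figure D1:**
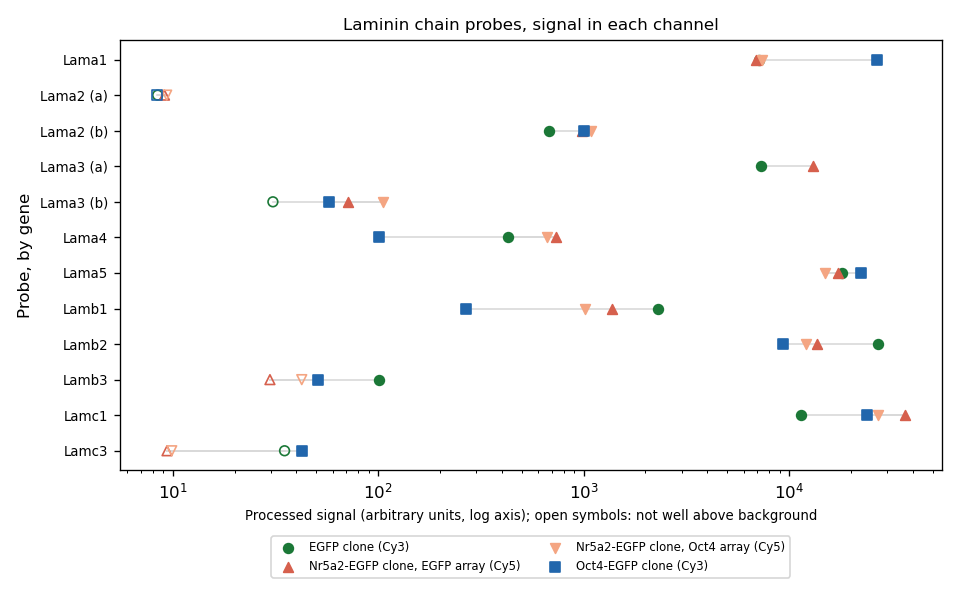
Processed signal (arbitrary units, log axis) of 12 of the 13 laminin probes in the 4 channels; letters tell probes of a gene apart, in the order of their probe names, and open symbols were not well above background. Lama1 was highest in the Oct4-EGFP clone at 26793, Lamb1 lowest there at 267, and Lamc1 lowest in the EGFP clone at 11484.

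Of 11 laminin probes measured, 1 was at least 2-fold higher and 0 lower in the Nr5a2-EGFP than in the EGFP clone, with a median log2 ratio of 0.43. Against Oct4-EGFP, 2 were higher and 1 lower, with a median of 0.35. Oct4-EGFP over EGFP had 2 higher and 3 lower, with a median of -0.04. The medians of all probes measured were 0.01, -0.00 and 0.02 in the same order. Over all probes, 3.35% were higher and 5.21% lower over EGFP, 4.49% and 7.45% over Oct4-EGFP, and 6.67% and 5.96% in the indirect comparison, so counts of 0 or 1 of 11 are near these shares.

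Lamc1 lies on chromosome 1, in its part beyond 70 Mb, as do Lamb3, Col4a3 and Col4a4. The other probes of that stretch had a median log2 ratio of 0.22 over EGFP (1253 probes, 10.9% at least 2-fold higher) and 0.18 over Oct4-EGFP (1244 probes, 9.89% higher). Chromosome 1 before 70 Mb had medians of -0.01 and -0.03. For Oct4-EGFP over EGFP the medians were 0.05 beyond and 0.02 before 70 Mb. How far this shift of the Nr5a2-EGFP clone enters the ratios of these genes was not tested. Lamc1 at 1.72 over EGFP lay above the median of 0.22, as any probe at least 2-fold higher would.

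Among the network collagens, the paired alpha 1 and alpha 2 chains of type IV collagen gave nearly the same ratios within each array. Col4a1, the alpha 1 chain, was printed at 10 spots, and its signals were 1159 in the EGFP clone, 744 and 661 in the Nr5a2-EGFP clone and 381 in the Oct4-EGFP clone. Its log2 ratio was -0.62 over EGFP, with an SD of 0.033 among 10 spots, and 0.62 over Oct4-EGFP, with an SD of 0.052 among the 9 spots kept. Col4a2, the alpha 2 chain with which it forms the trimer, gave 13837 in the EGFP clone, 9411 and 5883 in the Nr5a2-EGFP clone and 3893 in the Oct4-EGFP clone, with ratios of -0.57 and 0.56. The repeat readings of Col4a2 lay 0.40 apart. With the other array's reading its ratios were -0.96 and 0.95, beside -0.66 and 0.66 for Col4a1. Both chains were highest in the EGFP clone, between in the Nr5a2-EGFP clone and lowest in the Oct4-EGFP clone. Only the span from EGFP to Oct4-EGFP passed 2-fold, at -1.24 for Col4a1 and -1.12 for Col4a2. These genes are neighbours on chromosome 8 and are known to be transcribed in opposite directions from a shared promoter.

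The remaining type IV chains also lie in neighbouring pairs, and there the ratios depended on the probe. Col4a4, a chain of the kidney and lung network, had 3 probes. The bright probe b gave 5007 in the EGFP clone, 9368 and 7448 in the Nr5a2-EGFP clone and 2406 in the Oct4-EGFP clone, with log2 ratios of 0.86 and 1.57. Its probes a and c, with signals from 93.9 to 225, gave ratios between -0.27 and 0.01 on both arrays, so the Col4a4 difference rests on 1 of 3 probes. Probe b lies at chr1:82447879-82447938 and probe c at chr1:82515563-82515622. Col4a3, its neighbour and partner chain, gave -0.36 over EGFP and has no fold over Oct4-EGFP, where its Nr5a2-EGFP signal was not well above background. Col4a6, a chain of smooth muscle and epithelial basement membranes, gave 8156 in the EGFP clone, 14658 and 15563 in the Nr5a2-EGFP clone and 11798 in the Oct4-EGFP clone with probe a, with ratios of 0.82 and 0.42. Its probe b was well above background for Nr5a2-EGFP alone, at least 1.36-fold higher than EGFP and at least 1.32-fold higher than Oct4-EGFP. Its neighbour and partner Col4a5 stood at 0.14 and 0.62, the latter a bound of at least 1.40-fold, since the Oct4-EGFP signal was not well above background.

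The largest difference among the network collagens was that of Col8a2, a short chain of the endothelial and corneal networks. Its probe a gave 840.3 in the EGFP clone, 243 and 364 in the Nr5a2-EGFP clone and 2517 in the Oct4-EGFP clone. The Nr5a2-EGFP clone was the lowest of the 3, by -1.54 against EGFP, a 2.92-fold difference, and by -2.62 against Oct4-EGFP, a 6.15-fold difference. For this probe the repeat readings lay -0.57 apart, and with the reading taken beside Oct4-EGFP the ratio over EGFP was -0.98, just under 2-fold. Probe b, with signals from 44.7 to 73.5, was at least 1.20-fold higher than EGFP and stood at 0.24 over Oct4-EGFP, so the probes of Col8a2 disagreed by more than 2-fold on both arrays. Col8a1 was not well above background in any channel. Col10a1, the hypertrophic cartilage chain, was well above background in the Oct4-EGFP clone alone, with 1 of its 2 probes at 45.9.

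Over all 11 network probes measured against EGFP, 0 were higher and 1 lower in the Nr5a2-EGFP clone, with a median log2 ratio of 0.01. Of 12 measured against Oct4-EGFP, 1 was higher and 1 lower, with a median of 0.33. Oct4-EGFP over EGFP had 1 higher and 2 lower of 11, with a median of -0.16. The shares over all probes are those given for the laminins, and counts of 0 or 1 of 11 or 12 are near them.

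Of the fibrillar collagens, Col5a1, Col5a3 and Col27a1 were at least 2-fold lower in the Nr5a2-EGFP clone in 1 or both comparisons. Col5a1, the alpha 1 chain of type V collagen, which starts fibrils and sets their width, gave 8288 in the EGFP clone, 2365 and 1944 in the Nr5a2-EGFP clone and 4871 in the Oct4-EGFP clone. The Nr5a2-EGFP clone was below both others, by a log2 ratio of -1.77 against EGFP, a 3.42-fold difference, and of -1.31 against Oct4-EGFP, a 2.48-fold difference. Both ratios share the Nr5a2-EGFP clone, and its readings for Col5a1 lay 0.04 apart.

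Col5a3, another type V chain, gave 537 in the EGFP clone, 341 and 448 in the Nr5a2-EGFP clone and 1364 in the Oct4-EGFP clone. The Oct4-EGFP clone was the highest, with a ratio of Nr5a2-EGFP over Oct4-EGFP of -1.56, while the ratio over EGFP was -0.56. Col27a1, a fibrillar chain of cartilage, gave 183 in the EGFP clone, 119 and 129.6 in the Nr5a2-EGFP clone and 326 in the Oct4-EGFP clone, with ratios of -0.32 and -1.04. Col5a2, the partner of Col5a1 in type V trimers, was well above background in the EGFP clone alone, at 104, and its ratio of -0.61 is a bound of at least 1.52-fold.

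The chains of the main connective tissue collagens differed by less than 2-fold. Col1a1, the alpha 1 chain of type I collagen, gave 229 in the EGFP clone, 132 and 118 in the Nr5a2-EGFP clone and 167 in the Oct4-EGFP clone, with log2 ratios of -0.53 and -0.42. Its trimer partner Col1a2 gave 1733 in the EGFP clone, 1687 and 1572 in the Nr5a2-EGFP clone and 1197 in the Oct4-EGFP clone, with ratios of -0.09 and 0.29. Col3a1, the type III chain, gave 157 in the EGFP clone, 197 and 158 in the Nr5a2-EGFP clone and 107 in the Oct4-EGFP clone, with ratios of 0.18 and 0.35. Col2a1, of cartilage, stood at -0.66 over EGFP and was at least 1.13-fold lower than in the Oct4-EGFP clone, Col11a1 at -0.89 and -0.25 and Col11a2 at 0.26 on both arrays. Col24a1 gave -0.77 and 0.09, but its signals in the Nr5a2-EGFP clone were 56.1 on the EGFP array and 238 on the Oct4 array, and its readings differed by -1.27.

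The 11 fibrillar probes had a median log2 ratio of -0.56 over EGFP, with 0 higher (3.35% of all probes) and 1 lower (5.21%). Against Oct4-EGFP 0 of 10 were higher (4.49%) and 3 lower (7.45%), with a median of -0.21. In the indirect comparison 0 of 11 were higher (6.67%) and 0 lower (5.96%), with a median of -0.38.

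**Figure D2:**
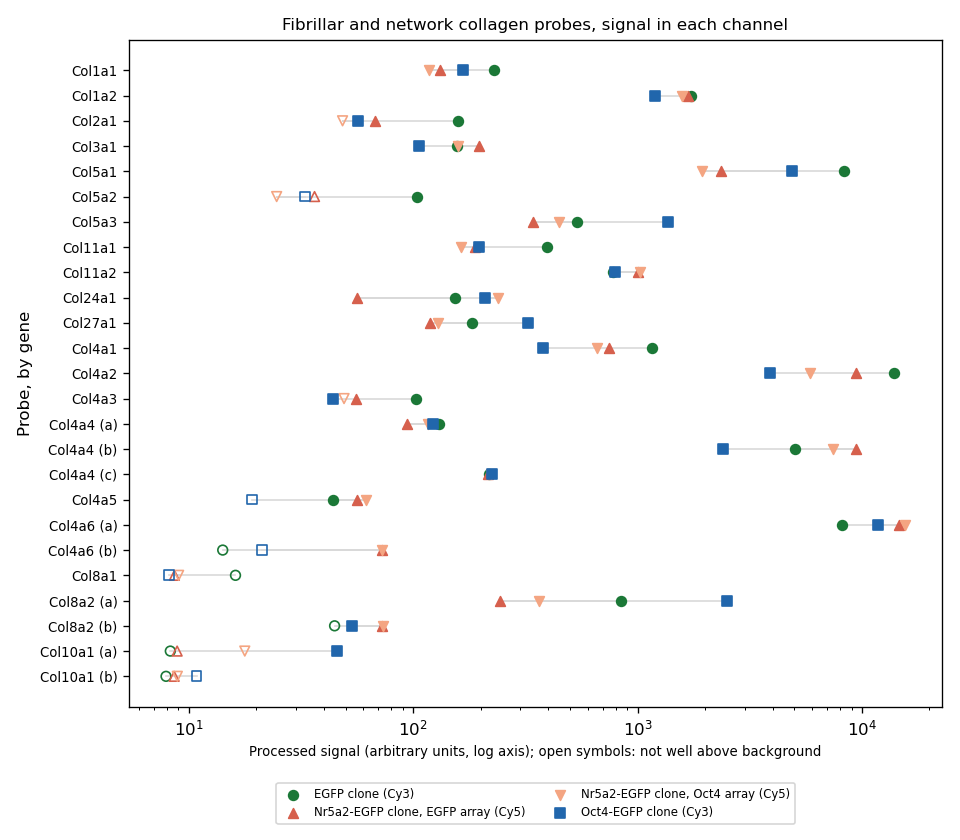
Processed signal (arbitrary units, log axis) of the 11 fibrillar probes, from Col1a1 to Col27a1, and the 14 network probes below them, in the 4 channels, with open symbols for spots not well above background. Col5a1 and probe a of Col8a2 were lower in the Nr5a2-EGFP clone than in both others, and Col4a1 and Col4a2 were highest in the EGFP and lowest in the Oct4-EGFP clone.

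The other collagens comprise beaded filament, fibril-associated, membrane-spanning and basement membrane types. Col6a1, a chain of the beaded filaments of type VI collagen, gave 903 in the EGFP clone, 378 and 344 in the Nr5a2-EGFP clone and 321 in the Oct4-EGFP clone. The EGFP clone was the highest, by a log2 ratio of -1.13 for Nr5a2-EGFP and -1.14 for Oct4-EGFP against it, and the other clones differed by 0.01. Col6a2, its neighbour and trimer partner, gave -0.72 over EGFP and -0.36 over Oct4-EGFP.

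Of the membrane-spanning collagens, Col25a1, first known from amyloid plaques, had the lowest ratio over EGFP of any member. Its bright probe d gave 9142 in the EGFP clone, 2070.3 and 1523 in the Nr5a2-EGFP clone and 2335 in the Oct4-EGFP clone, a log2 ratio of -2.12 over EGFP (4.34-fold) and -0.65 over Oct4-EGFP. Probe c was well above background in the EGFP clone alone, at 168, beside 22.5 and 20.2 in the Nr5a2-EGFP clone and 20.6 in the Oct4-EGFP clone, and Nr5a2-EGFP lay at least 1.83-fold and Oct4-EGFP at least 1.90-fold below it. Probe b, the triple helix probe shown above, gave 753 in the EGFP clone, 578 and 446 in the Nr5a2-EGFP clone and 406 in the Oct4-EGFP clone, with ratios of -0.38 and 0.03. Probe d lies at chr3:129885684-129885743 and probe b at chr3:130270497-130270556. All 3 measured probes were highest in the EGFP clone, and the size of the difference depended on the probe.

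Col23a1 gave 13380.1 in the EGFP clone, 5606 and 4955 in the Nr5a2-EGFP clone and 6074 in the Oct4-EGFP clone with its bright probe c, a log2 ratio of -1.30 over EGFP and -0.34 over Oct4-EGFP. Its dim probes a and b, with signals from 50.2 to 147, gave 0.72 and 0.06 over EGFP and 0.20 and -0.24 over Oct4-EGFP, so this difference rests on 1 of 3 probes. With the scanner software's own ratio, probe a was 1.54 over EGFP, beyond 2-fold in the opposite direction to probe c at -1.26. Col17a1, the hemidesmosome collagen of epithelia, gave 59.8 in the EGFP clone, 33.5 and 31.6 in the Nr5a2-EGFP clone and 236 in the Oct4-EGFP clone. Neither Nr5a2-EGFP reading was well above background, so this clone was at least 2.97-fold lower than the Oct4-EGFP clone. Oct4-EGFP over EGFP was 1.44. Col13a1, of neuromuscular junctions, gave 46.9 in the EGFP clone, 44.8 and 59.8 in the Nr5a2-EGFP clone and 180.4 in the Oct4-EGFP clone, with a ratio over Oct4-EGFP of -1.03 and a bound of at least 1.07-fold lower than EGFP.

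Col18a1, a proteoglycan of basement membranes and the source of endostatin, was higher in the Nr5a2-EGFP than in the Oct4-EGFP clone with both probes. Its probe b gave 9039 in the EGFP clone, 15546 and 12130.0 in the Nr5a2-EGFP clone and 4564 in the Oct4-EGFP clone, with log2 ratios of 0.73 and 1.37. Its probe a gave 11791 in the EGFP clone, 14936 and 13136 in the Nr5a2-EGFP clone and 8595 in the Oct4-EGFP clone, with ratios of 0.34 and 0.62, the same order of clones at under 2-fold.

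Of the fibril-associated collagens, Col20a1 gave 5120.4 in the EGFP clone, 4446 and 3706 in the Nr5a2-EGFP clone and 1755 in the Oct4-EGFP clone with probe b, with log2 ratios of -0.19 and 1.02. Its probe a gave -0.16 and 0.69. Col22a1, of tissue junctions, gave 174 in the EGFP clone, 227 and 251 in the Nr5a2-EGFP clone and 41.2 in the Oct4-EGFP clone, with ratios of 0.28 and 1.44. In both genes the Oct4-EGFP clone was the lowest, by -1.21 and -1.17 against EGFP. All other measured chains of the remaining collagens, fibril-associated or not, lay under 2-fold in all comparisons. Among them were the anchoring fibril collagen Col7a1 at -0.04 and -0.35, the cartilage chain Col9a2 at -0.05 and -0.58 and Col14a1 at 0.03 and 0.52. The helix probes of Col15a1 gave 0.28 and 0.07 and those of Col16a1 -0.30 and -0.01.

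**Figure D3:**
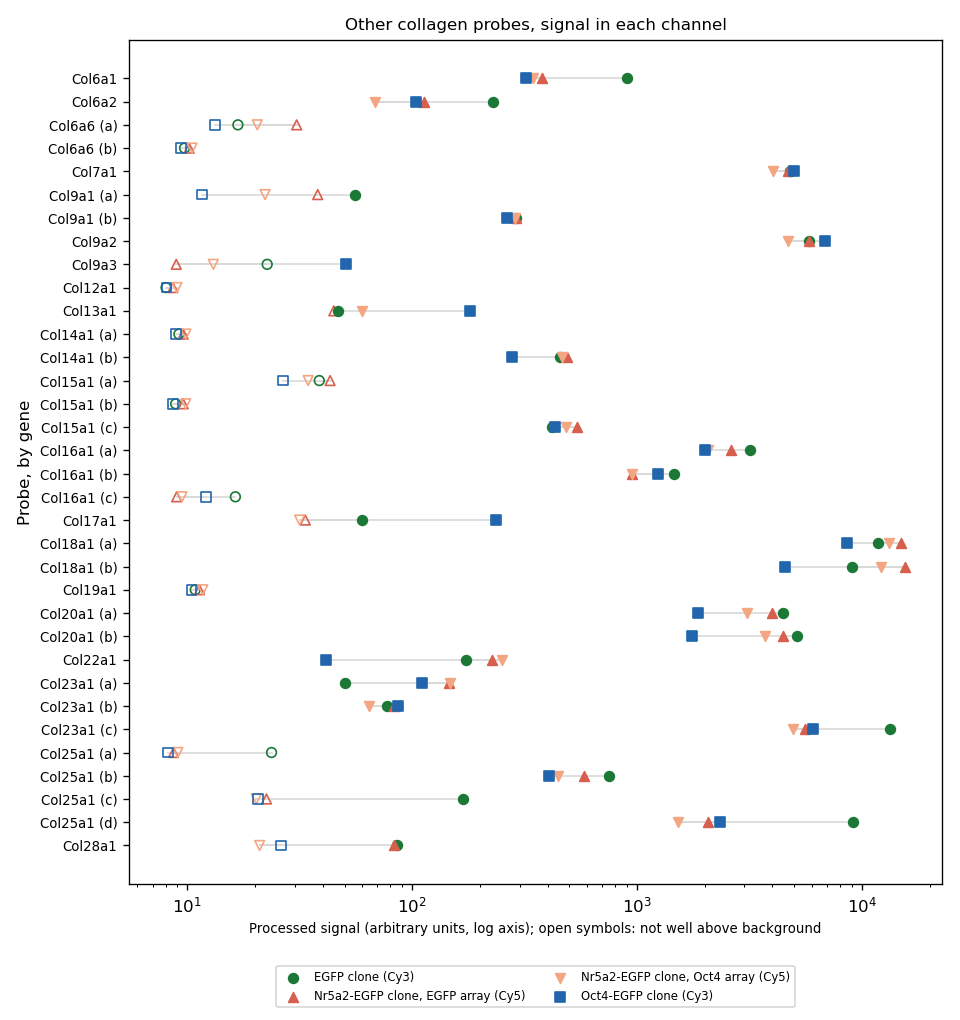
Processed signal (arbitrary units, log axis) of the 34 probes of the remaining collagens in the 4 channels, with open symbols for spots not well above background. Col6a1, probe c of Col23a1 and probes c and d of Col25a1 stand apart in the EGFP clone, Col17a1 and Col13a1 were highest in the Oct4-EGFP clone, and Col22a1, both Col20a1 probes and probe b of Col18a1 were lowest there.

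Counted over all families, 1 of 57 member probes was higher by at least 2-fold over EGFP (1.75%, beside 3.35% of all probes) and 6 were lower (10.5%, beside 5.21%). The lower ones were Col5a1, Col6a1, probe a of Col8a2, probe c of Col23a1 and probes c and d of Col25a1, all of them collagens, so 0 of 46 collagen probes were higher and 6 lower. Probe c of Col25a1 counts here by its ratio of -1.13, but it is known only to be at least 1.83-fold lower. A filter on all channels, which leaves it out, gave 5 lower. The split of higher and lower probes also depended on the scaling. Centring each array on its median in place of loess gave 4 higher and 5 lower, with Lama3, Col4a4 and Col4a6 gained at 1.04 to 1.07 and Col6a1 at -0.93. That scaling also moved the median of all probes to 0.14.

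Against the Oct4-EGFP clone, 6 of 55 member probes were at least 2-fold higher (10.9%, beside 4.49% of all probes) and 7 were lower (12.7%, beside 7.45%). The higher ones were Lama4, Lamb1, Col4a4, Col18a1, Col20a1 and Col22a1. The lower ones were Lama1, Col5a1, Col5a3, Col27a1, Col8a2, Col13a1 and Col17a1. In the indirect comparison of Oct4-EGFP over EGFP, which shares the Nr5a2-EGFP clone with both others, 4 of 58 were higher (6.90%, beside 6.67%) and 10 lower (17.2%, beside 5.96%). The higher share was close to that of all probes. The lower ones were Lamb1, Lamb2, Lama4, Col4a1, Col4a2, Col6a1, Col20a1, Col22a1 and probes c and d of Col25a1. Here too probe c of Col25a1 counts by its ratio and is known only to be at least 1.90-fold lower. The filter on all channels gave 9 lower. Setting the Cy3 levels of both arrays against each other in place of the ratios gave -2.61 for Lamb1, -1.20 for Lamb2, -1.52 for Col4a2 and 2.17 for Lama1. The median over the members was -0.11 over EGFP, 0.03 over Oct4-EGFP and -0.23 in the indirect comparison.

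**Figure D4:**
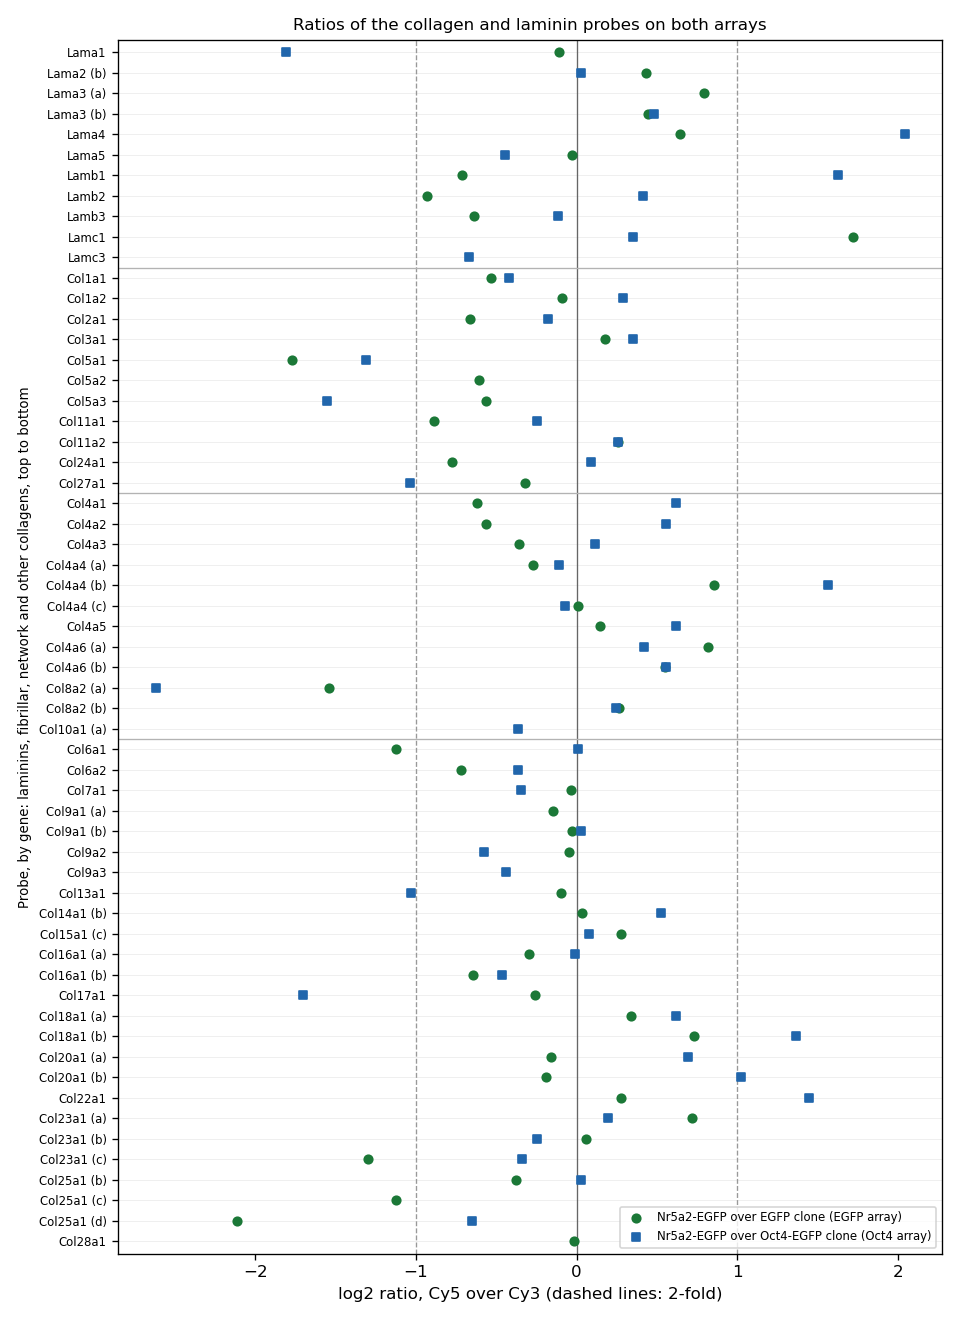
Log2 ratios of the Nr5a2-EGFP clone over the EGFP clone (circles) and over the Oct4-EGFP clone (squares) for the measured probes, by family from laminins at the top to the remaining collagens at the bottom, with dashed lines at a 2-fold difference. Both arrays share the Nr5a2-EGFP clone. Lamc1 was the only probe shown beyond the right line for EGFP, and Col5a1 and probe a of Col8a2 lay beyond the left line for both.

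Probes of a gene did not always give the same answer. Of the 15 genes with several probes, 10 had at least 2 measured over EGFP, and in Col23a1, Col25a1, Col4a4 and Col8a2 their log2 ratios spanned at least 1. Over Oct4-EGFP this held for Col4a4 and Col8a2 of 8 such genes, and in the indirect comparison for Col23a1, Col25a1 and Col8a2 of 8. In each of these genes the ratio largest in size came from the probe of highest signal, but the offset pulls the ratios of dim probes towards 0. With the scanner software's own ratio over EGFP this order was reversed in Col23a1 and Col25a1. Dim probe a of Col23a1 gave 1.54 beside -1.26 for bright probe c. Dim probe c of Col25a1 gave -2.90 beside -2.14 for bright probe d. Col8a2 kept the order there, with probe a at -1.79 and probe b under 2-fold, and Col4a4 was not compared.

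Genes that act on or with these chains were read from 4 lists, with 1 probe per gene, the brightest. The shares over all genes on this count were 3.31% higher and 5.09% lower over EGFP, 4.55% and 7.14% over Oct4-EGFP, and 6.48% and 5.86% in the indirect comparison. Of the enzymes that modify, trim and cross-link collagen chains, 29 were measured. Over EGFP 2 were higher and 2 lower, over Oct4-EGFP 1 was higher and 3 lower, and in the indirect comparison 4 were higher and 0 lower. P3h3, of the prolyl 3-hydroxylase family, was higher in the Nr5a2-EGFP clone on both arrays, at 1.36 and 1.19. Pcolce, which speeds removal of the C-terminal propeptide of fibrillar procollagens, was lower on both, at -1.55 and -1.67. Its relative Pcolce2 was at least 2.08-fold lower than in the EGFP clone and stood at -2.57 over Oct4-EGFP. Adamts14, which trims the N-terminal propeptide, gave 1.03 over EGFP, or 0.74 as the mean of its probes (1 enzyme higher), and -0.69 over Oct4-EGFP. The 4 higher ones in the indirect comparison were Adamts14 at 1.71, Pcolce2 at 1.44, P3h4 at 1.31 and the lysyl oxidase Loxl4 at 1.08.

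Of the basement membrane partners, 15 were measured over EGFP, with 0 higher and 1 lower, and 16 over Oct4-EGFP, with 1 higher and 3 lower. Fbln2, a glycoprotein that binds laminins and nidogens, gave 9854 in the EGFP clone, 849 and 394 in the Nr5a2-EGFP clone and 1586 in the Oct4-EGFP clone, with log2 ratios of -3.43 and -1.90. The EGFP clone was the highest and the Nr5a2-EGFP clone the lowest. The Nr5a2-EGFP readings of Fbln2 lay 0.84 apart, so the size of its ratios depends on the reading. Its Cy3 levels gave -2.37 for Oct4-EGFP over EGFP. Tinagl1, a matricellular protein of basement membranes, gave 16695 in the EGFP clone, 23593 and 15792 in the Nr5a2-EGFP clone and 2291 in the Oct4-EGFP clone, with ratios of 0.50 and 2.70. Nid2, a nidogen that links laminin to type IV collagen, stood at -1.20 over Oct4-EGFP, and the laminin-related guidance factor Ntn1 at -1.22, or -0.75 as the mean of its probes. Nid1 was 0.14 over EGFP with its brightest probe but 1.28 as the mean of its probes. In the indirect comparison 0 of 16 were higher and 4 lower, namely Tinagl1 at -2.21, Fbln2 at -1.53, the calcium-binding matrix protein Smoc1 at -1.25 and Fras1, a bound of at least 1.39-fold.

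Of the receptors, 19 were measured and 1 was higher and 1 lower over EGFP. Dag1, the dystroglycan that anchors laminin, was higher in the Nr5a2-EGFP clone on both arrays, at 1.07 and 1.37, and Itgb4, the hemidesmosomal integrin chain, was lower than in the EGFP clone at -1.44. Over Oct4-EGFP 2 were higher, Dag1 and the collagen receptor Ddr1 at 1.11, and 1 was lower, the syndecan Sdc1 at -1.33. In the indirect comparison 2 were higher, Sdc1 at 1.32 and the laminin receptor Bcam at 1.11, and 0 lower. Of the proteases and their inhibitors, 17 were measured over EGFP, with 0 higher and 1 lower, Mmp24 at -1.09, which was -0.47 as the mean of its probes, with 0 lower. Of 19 measured over Oct4-EGFP, Timp3, an inhibitor bound to the matrix, was higher at 1.91, and the gelatinase Mmp2 and Mmp17 were lower at -1.84 and -1.63. In the indirect comparison 1 was higher, Mmp17 at 1.42, and 2 lower, among them Timp3 at -2.23.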

How the data were processed

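RNA of 3 clones was measured on 2 two-colour arrays, with groups and dyes taken from the labels. The deposited files hold spot intensity as read by Agilent Feature Extraction. Its version is 10.7.3.1 by the file headers but 9.3.2.1 by the submitters' processing notes. Processed intensity was background-subtracted, detrended and dye-normalized by that software, per the file headers, which also give mm9 as the build of the probe coordinates. The log10 ratio of Cy5 over Cy3 and the flags for background, saturation and outliers are as the authors deposited them. A deposited table of log2 ratios followed that log10 ratio at r = 0.997 on both arrays, with column medians of 0.03 (EGFP array) and 0.05 (Oct4 array). This settles its direction and log base by comparison, but how it was centred stays unknown. Labelling started from 10 µg RNA per channel with an oligo-dT primer, per the labels' protocols, which favours 3′ ends.

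In limma 3.58.1 (R 4.3.3), mean signals and local backgrounds were corrected by normexp with an offset of 50 and normalised by loess within each array. Control spots and outlier spots (530 on the EGFP and 523 on the Oct4 array) were left out, and spots of a probe were averaged. Single channels were scaled by Aquantile. Where 1 side was not well above background, at least N-fold sets the measured level against the higher of the dim probe's own level and the lowest level well above background, open to dye bias. Names were updated by accession through RefSeq (GRCm38.p6), which matched 69 of 72 member probes, and gene neighbours come from the same table. Arrays give no counts, so their number limits the precision. Probes printed 10 times had a median SD of 0.068 (EGFP array) and 0.066 (Oct4 array) among spots. The steps were also run on simulated arrays, where known folds were given to brighter probes without a dye effect. That run does not cover dim probes or dye bias.

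Members were chosen by name, and members, lists and rules were chosen with earlier results of these data known. Signals in all channels are given for every probe of Lama1, Lama5, Lamb1, Lamc1, Col4a1, Col4a2, Col1a1, Col1a2 and Col3a1, for the 10 probes of highest mean signal and for every probe at least 2-fold apart in a comparison. From each partner list, up to 4 genes per comparison that were at least 2-fold apart are named. The 7 alternatives were median centring, the software's ratio, the deposited value table, an offset of 16, the other array's reading of the Nr5a2-EGFP clone, no background filter, and a filter on all channels. For the lists, the mean over a gene's probes was tried as well. Of the genes in the counts, 1 member with 1 probe and 1 partner gene are not reported here by name or value.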

Additional observations from a re-analysis of the deposited data

How the results depend on the processing

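With 1 array per pair of clones, none of these values carries an error between cultures, and dim probes are limited by their signal over background. No member ratio that was at least 2-fold reversed its direction under the 7 alternatives. The count higher over EGFP, 1, became 4 with median centring, 4 with the software's ratio, 4 with the deposited value table and 2 with the other reading of the Nr5a2-EGFP clone. The count lower over EGFP, 6, became 12 with the software's ratio and 13 with the value table, and the count of Oct4-EGFP lower than EGFP, 10, became 17 with either. Probes gained with the software's ratio include Lamb3 (-1.76 over EGFP) and Col5a2 (-1.52), and the cause was not tested, since background, dye normalisation and offset differ together. An offset of 16 alone gave 8 lower over EGFP. Col27a1 over Oct4-EGFP was -0.98 with median centring. Of the recomputed ratios of the named member probes, 354 moved by less than the SD of the repeat readings, 0.27, and 50 by more. No paired analysis was possible because each group holds 1 array.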
